A study of Mus musculus with 71 samples.

Results

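The subunits of oxidative phosphorylation were examined in hippocampal translatomes of 71 mice. Protein-coding genes were taken by symbol (names beginning Nduf with a subunit letter, Sdha to Sdhd, Uqcr, Cox4 to Cox8 and Atp5, plus the 13 mt-Nd, mt-Co, mt-Atp and mt-Cytb genes) when the table held at least 10 counts for them in all. That gave 100 of 57010 rows, 87 in the nuclear genome and 13 in the mitochondrial genome. Another 20 rows with a matching symbol were left out, being 17 pseudogenes, 1 lncRNA and the protein-coding Cox8c and Ndufb11b, which had no counts. Cox5b-ps, named as a pseudogene but annotated as protein-coding, was kept and counted under complex IV. Of the nuclear genes, 38 carry names of complex I, 4 of complex II, 8 of complex III, 18 of complex IV and 19 of complex V; of the mitochondrial genes, 7 belong to complex I, 1 to complex III, 3 to complex IV and 2 to complex V. Ndufa4 is counted by its name under complex I, although its protein is now placed with complex IV, and Atp5po has 2 rows, of which ENSMUSG00000116933 is close to empty.

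The mice were wild-type C57BL/6J males put on their diet at 3 weeks of age for 12 weeks and housed 6 per cage under 12 h of light. NC ad lib mice ate normal chow (8% lipids), HFS ad lib mice a high-fat sucrose diet (45% lipids), both without limit, and HFS TRF mice ate the high-fat sucrose diet without limit for 8 weeks and then only between zt11 and zt1 for the last 4 weeks (TRF, time-restricted feeding; zt, hours after lights on). Each of the 3 diets was sampled in 4 conditions: home cage at zt3 (HC zt3), 1 h after a 10-min object recognition memory training given between zt2 and zt4 (ORM+1 h), home cage at zt15 (HC zt15) and 12 h after such training (ORM+12 h). Every one of the 12 groups had 6 mice except HFS TRF HC zt15, which had 5. HC zt3 and ORM+1 h formed a first experiment of 36 mice and HC zt15 and ORM+12 h a second of 35 mice, so night and experiment cannot be told apart. All mice came through the same capture, in which an antibody to phosphorylated ribosomal protein S6 pulled down ribosomes with their mRNA (pS6-TRAP); no untouched input RNA was analysed here.

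Oxidative phosphorylation is the last stage of respiration. Complexes I and II pass electrons from NADH and succinate to ubiquinone, complexes III and IV carry them on to oxygen, complexes I, III and IV pump protons as they do so, and complex V, the ATP synthase, lets the protons back to make ATP. Many core subunits hold redox centres or catalytic sites, while many small accessory subunits brace them. Most subunits are encoded in the nucleus and made on cytosolic ribosomes. The 13 mitochondrial ones are made inside the organelle on mitochondrial ribosomes, which have no S6, so an S6 capture does not target their mRNA. In the hippocampus, neurons at the synapse are among the large consumers of this ATP.

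Each mouse gave 34698914 to 62758570 counts over all genes (median 53999489). The nuclear subunit genes took 1.58 to 2.22% of them and the mitochondrial ones 0.0165 to 0.144%. The 10 markers of neurons, Camk2a, Snap25 and Slc17a7 among them, were read in every mouse, at a summed 11823 to 16766 CPM (the read count normalised to library size). Markers of choroid plexus, the tissue of the ventricles that makes cerebrospinal fluid, were present too, at a summed 151 to 24834 CPM per mouse. Since the samples are bulk, fewer cells of a type and less RNA per cell cannot be told apart in any result that follows.

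Some promoters of these genes hold known binding motifs of the factors of respiratory genes. Those of 5 genes that were higher or lower at night below are shown. They were picked because they hold the motif of NRF1, the nuclear respiratory factor. RefSeq promoters (GRCm38.p6, from 250 bases before to 50 after the start) were found for 68 of the 87 nuclear genes, as 73 promoters. The NRF1 motif, written with 1 free position and searched on both strands, stood in 18 of the 73 (24.7%) and in 4.60% of all 32851 promoters. With the free position set to A it stood in 6.85% against 0.971%, CCGGAAG of the ETS family in 21.9% against 8.86%, and the YY1 motif in 5.48% against 0.633%. Capitals mark the NRF1 motif on either strand, as a match of letters and not as a bound site. The windows are those of Cox6a1 (chr5:115348909-115349208, minus strand), Atp5me under its RefSeq symbol Atp5k (chr5:108434350-108434649, minus strand), Ndufs5 (chr4:123718137-123718436, minus strand), Uqcrc1 (chr9:108936398-108936697, plus strand) and Sdha (chr13:74350191-74350490, minus strand).
Cox6a1: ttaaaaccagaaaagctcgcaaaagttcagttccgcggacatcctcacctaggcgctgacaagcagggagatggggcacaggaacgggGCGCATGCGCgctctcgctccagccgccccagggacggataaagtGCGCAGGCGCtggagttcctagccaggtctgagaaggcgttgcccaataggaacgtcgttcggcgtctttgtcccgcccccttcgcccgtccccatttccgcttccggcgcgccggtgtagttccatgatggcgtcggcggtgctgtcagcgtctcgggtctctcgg
Atp5me: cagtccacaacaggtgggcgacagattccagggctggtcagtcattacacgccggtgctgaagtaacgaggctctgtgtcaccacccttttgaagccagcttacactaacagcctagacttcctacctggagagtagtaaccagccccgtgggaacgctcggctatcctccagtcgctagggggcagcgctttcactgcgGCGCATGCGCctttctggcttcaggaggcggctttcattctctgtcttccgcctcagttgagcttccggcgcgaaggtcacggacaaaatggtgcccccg
Ndufs5: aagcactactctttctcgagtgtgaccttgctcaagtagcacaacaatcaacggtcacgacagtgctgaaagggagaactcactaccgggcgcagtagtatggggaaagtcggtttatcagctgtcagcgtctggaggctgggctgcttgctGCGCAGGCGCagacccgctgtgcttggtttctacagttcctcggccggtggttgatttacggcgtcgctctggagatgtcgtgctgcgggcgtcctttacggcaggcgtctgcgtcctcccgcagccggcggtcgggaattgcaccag
Uqcrc1: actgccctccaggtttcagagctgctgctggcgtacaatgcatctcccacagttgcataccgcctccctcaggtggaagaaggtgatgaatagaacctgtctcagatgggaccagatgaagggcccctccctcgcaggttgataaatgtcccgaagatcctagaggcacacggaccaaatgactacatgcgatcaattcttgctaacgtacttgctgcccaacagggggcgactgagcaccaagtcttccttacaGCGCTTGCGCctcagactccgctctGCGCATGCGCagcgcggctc
Sdha: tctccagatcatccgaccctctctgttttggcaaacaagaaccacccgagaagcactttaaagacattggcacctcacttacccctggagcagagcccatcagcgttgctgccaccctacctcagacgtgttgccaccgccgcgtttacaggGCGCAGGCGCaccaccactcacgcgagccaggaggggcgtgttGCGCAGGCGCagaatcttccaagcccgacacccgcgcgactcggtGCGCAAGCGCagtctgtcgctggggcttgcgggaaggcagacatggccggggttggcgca
The first 3 genes were higher and the last 2 lower at zt15 in HFS TRF mice. Of the promoters of the genes that rose there, 8 of 35 held the NRF1 motif (22.9%), against 7 of 31 among genes not called (22.6%) and both of the 2 found for genes that fell. The shares for risers and for genes not called were close to each other and to that of all 73.

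Mitochondrial genes share sequence with nuclear copies of mitochondrial DNA, and the deposited counts keep only reads that map to 1 place. The reads are pairs of 50 bases each. The 50-base words used below are single stretches within exons, so a pair may map to 1 place where a word of it does not. A 50-base stretch of mt-Co2 (GRCm39 chrM:7329-7378, plus strand) and one of mt-Nd1 (chrM:3204-3253, plus strand) show the contrast.
mt-Co2: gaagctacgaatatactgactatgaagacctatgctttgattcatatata
mt-Nd1: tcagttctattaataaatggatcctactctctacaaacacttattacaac
The mt-Co2 stretch occurs at 3 places in GRCm39: in the mitochondrial gene, at chr1:24654281-24654330 in the unprocessed pseudogene Gm28661, and at chr2:22477609-22477658 in the unprocessed pseudogene Gm13341, which lies within Myo3a. The mt-Nd1 stretch occurs at 1 place. Over whole transcripts, none of the 50-base words of mt-Co2, mt-Co3, mt-Atp6, mt-Atp8 and mt-Nd4l and 1.00% of those of mt-Nd3 occur once in the genome, against 37.8% for mt-Nd4, 48.9% for mt-Co1, 91.7% for mt-Nd2, 92.4% for mt-Nd5 and 100% for mt-Nd1, mt-Cytb and mt-Nd6.

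Levels between genes are compared per length, as TPM (counts per length on a common scale, from counts and the length of the canonical transcript), averaged over all 71 mice. In complex V, Atp5f1b, the catalytic beta subunit of ATP synthase, had the highest level of all members at 2765 ± 186 TPM (SD, n = 71), followed in complex IV by Cox8a at 2448 and Cox6a1 at 2153 TPM, small subunits of cytochrome c oxidase. Ndufa4 stood at 2229 TPM, Cox4i1, the ubiquitous form of the regulatory subunit 4, at 2116 TPM, Uqcr10 led complex III at 1148 TPM and Sdha, the flavoprotein that oxidises succinate, led complex II at 401 TPM. At the low end of each complex were Ndufa4l2 (1.21 TPM), Sdhc (115), Uqcr11 (221), Cox7b2 (0.302) and the second Atp5po row (0.0600). Summed by complex, the nuclear subunits of complexes I, IV and V reached similar levels, at 14293, 14889 and 13700 TPM, with 3659 TPM in complex III and 881 TPM in complex II.

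Among paired isoforms of cytochrome c oxidase, the ubiquitous form was the higher one in each pair. Cox6a1 had 2153 TPM and its muscle and heart isoform Cox6a2 44.4 TPM, Cox6b1 1685 and the testis form Cox6b2 38.3 TPM, Cox8a 2448 and Cox8b 10.0 TPM, Cox4i1 2116 and Cox4i2 1.49 TPM. Cox7a2 stood at 824 TPM, Cox7a2l, which helps join complexes III and IV, at 267 TPM, the muscle form Cox7a1 at 21.5 TPM, and Cox7b at 856 against 0.302 TPM for Cox7b2. The 3 genes for the identical c-ring subunit of ATP synthase stood at 1388 (Atp5mc3), 1037 (Atp5mc1) and 150 TPM (Atp5mc2). Only 11.1% of the 50-base words of Atp5mc1 and 12.6% of those of Atp5mc2 occur once in the genome, so their levels are uncertain, as are those of Ndufs5 (30.5%), Atp5mg (26.8%), Cox5b-ps (35.5%), Cox7c (35.6%), Uqcrb (47.5%) and Cox7a2l (50.4%).

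The mitochondrial genes fell into a readable and a nearly empty set. mt-Nd1 had 329 ± 177 TPM (SD, n = 71), mt-Cytb 246, mt-Co1 197, mt-Nd4 148, mt-Nd2 119 and mt-Nd5 85.3 TPM. The other 7 stood between 0.611 TPM (mt-Nd4l) and 2.44 TPM (mt-Atp6), with mt-Nd3, mt-Nd6, mt-Atp8, mt-Co3 and mt-Co2 in between, and each was at 0 counts in 5 to 28 mice. Of these 7, mt-Nd6 alone had words found once throughout (100%); it is the one protein gene on the other strand of the mitochondrial genome. It had 7.87 counts a mouse on average, and the part of shared sequence in the low counts of the others was not tested. The division was made after the levels were seen.

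**Figure D1:**
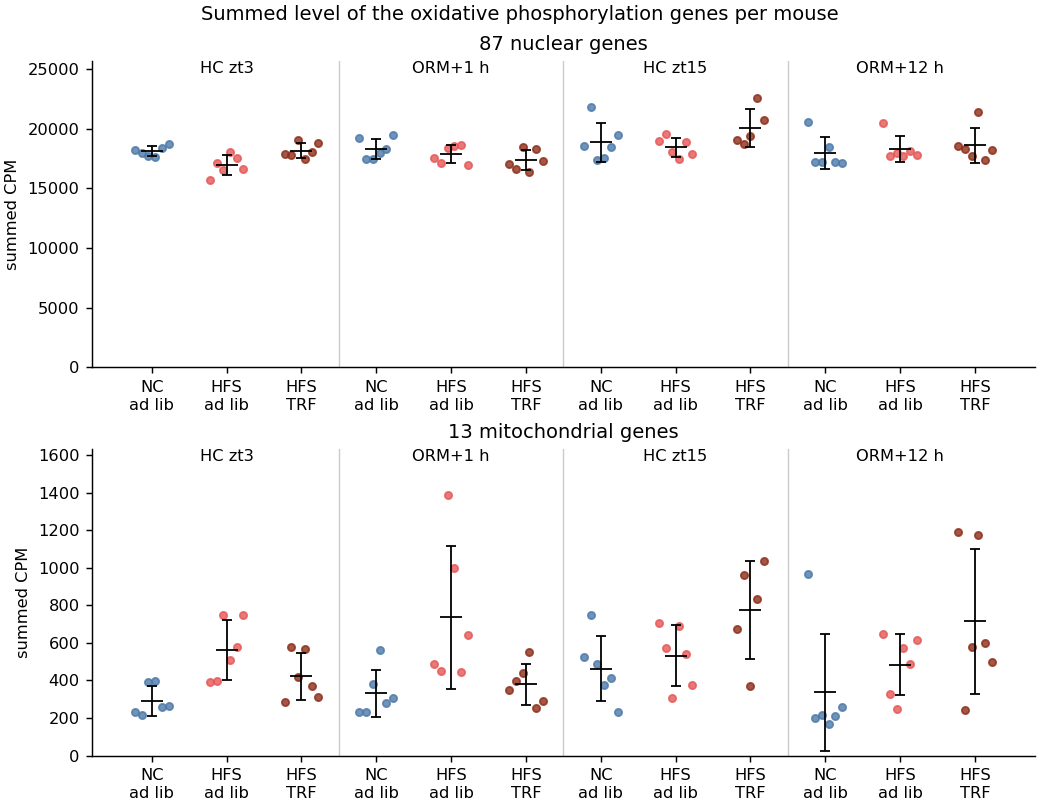
Summed CPM of the 87 nuclear and of the 13 mitochondrial genes in each mouse (points) by diet and condition, with the mean and SD of each group. Nuclear sums lie between 15697 and 22558 in all 71 mice, while mitochondrial sums run from 169 to 1390, with 1 NC ad lib ORM+12 h mouse at 967 well above the other mice of its group.

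The summed nuclear level varied little between groups and the mitochondrial level more. Under TRF the nuclear sum ran from 17443 to 19055 CPM at HC zt3 (median 17917), and the 5 mice at HC zt15 had 19028, 18692, 19403, 22558 and 20733 CPM. These ranges overlap by a narrow margin. The mitochondrial sum ran from 215 to 397 CPM (median 264) in NC ad lib and from 394.6 to 751 CPM (median 543) in HFS ad lib mice at HC zt3. These also overlapped only at their edges.

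Few subunit genes passed the test 1 h after training. By edgeR, which tested 30141 genes in 1 model over the 12 groups, 5.73% of all genes were called at ORM+1 h against HC zt3 in NC ad lib mice (4.03% higher and 1.70% lower, adjusted p under 0.05), but 0 of 87 nuclear and 0 of 13 mitochondrial genes; at an unadjusted p below 0.05, 4 nuclear genes were higher and 1 lower, and DESeq2 also called 0. Under TRF 2.87% of all genes were called (2.24% higher, 0.624% lower) and again 0 nuclear members by both tools, with 1 higher at an unadjusted p below 0.05. Counts at an unadjusted p, here and below, are given without the share of all genes at that threshold. They are therefore not shown to exceed a background. In HFS ad lib mice 1.23% of all genes were called (0.740% higher, 0.491% lower) and 1 nuclear member, Uqcrh, the hinge protein of complex III. Uqcrh ran from 203 to 248 CPM (median 215) at HC zt3 and from 239 to 316 CPM (median 259) at ORM+1 h in these mice. The 2 ranges overlapped at their edges, and the rise was 0.27 ± 0.07 on the log2 scale (SE, edgeR adjusted p = 0.0432). DESeq2 called 5. By edgeR none was called when HFS ad lib HC zt3 replicate 1, 2, 3 or 6 or ORM+1 h replicate 3, 4 or 5 was left out, while leaving out ORM+1 h replicate 1 gave 3 and replicate 2 gave 2. In that diet 35 nuclear genes were higher and 1 lower at an unadjusted p below 0.05, with 75 of 87 above 0 and a median of 0.15. The HFS TRF response minus the HFS ad lib response was called for 0 genes of all tested (0%) and had a median of −0.19 over the nuclear members, 31 of them lower and 0 higher at an unadjusted p below 0.05.

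Many nuclear subunit genes were higher at night in both HFS diets, and the few that were lower were on the list of core genes given below. At HC zt15 against HC zt3, edgeR called 11.7% of all genes in NC ad lib mice (5.18% higher and 6.54% lower). Of the 87 nuclear members, 6 were higher and 1 lower (median 0.10). In HFS ad lib mice 10.4% of all genes were called, 3.88% higher and 6.54% lower, and 25 nuclear members were higher and 2 lower (median 0.19). Under TRF 14.2% of all genes were called, 5.95% higher and 8.26% lower, and 45 nuclear members were higher and 4 lower (median 0.25). Without HFS TRF HC zt15 replicate 4 the HFS TRF count was 28 instead of 49, and the NC ad lib count of 7 became 4, 3, 11 and 4 without HC zt15 replicates 1, 2, 4 and 6. The HFS TRF risers were spread over the complexes, with 21 of 38 in complex I, 2 of 4 in complex II, 4 of 8 in complex III, 10 of 18 in complex IV and 8 of 19 in complex V. No member of complex IV or V was lower in any diet.

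**Figure D2:**
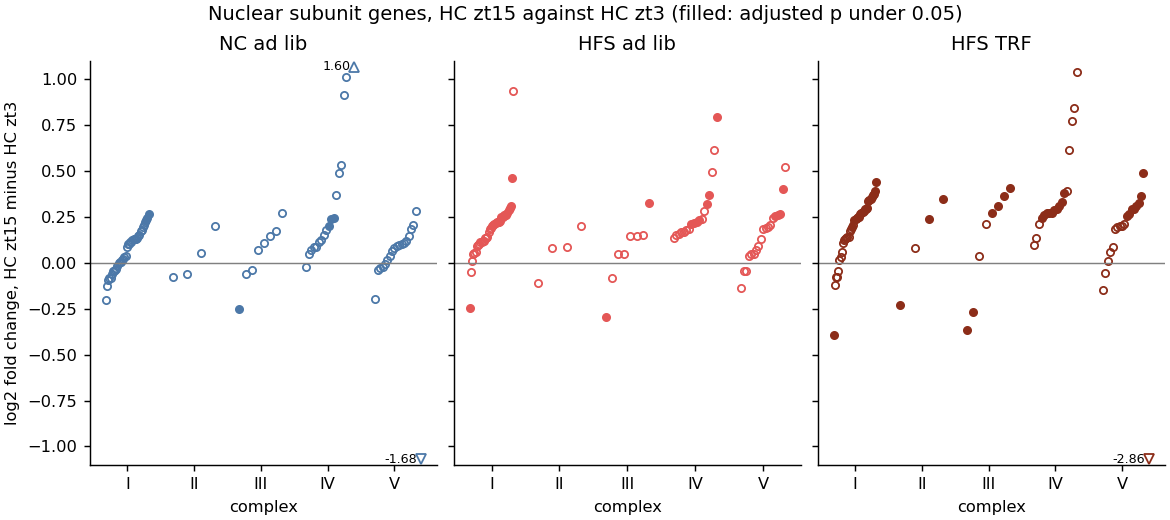
Log2 fold change of each nuclear subunit gene at HC zt15 against HC zt3, by complex, with 1 panel for each diet; filled points passed the adjusted p of 0.05 and triangles with a value lie beyond the axis. Filled points number 7 in NC ad lib mice, 27 in HFS ad lib and 49 under TRF, and those under 0 lie in complexes I, II and III.

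The genes that fell at night were all of the core list. This list, 19 of the 87 nuclear genes, takes the redox and core subunits of complexes I to III, Cox4i1 and Cox5a, and the alpha, beta and c subunits of ATP synthase. Uqcrc1 and Uqcrc2 are on it as core proteins by name, and the membrane anchors Sdhc and Sdhd are not. Cox4i1, a regulatory subunit, and Cox5a are on it although the catalytic subunit of complex IV, mt-Co1, is mitochondrial. The list was chosen with earlier results of these data known. In HFS TRF mice 4 core genes were lower and 2 higher (median 0.04), while 43 of the other 68 genes were higher and 0 lower (median 0.27). The 2 risers on the core list were Cox4i1 and Atp5mc1. In HFS ad lib mice the counts were 2 lower and 1 higher in the core and 24 higher and 0 lower outside it (medians 0.05 and 0.21), and in NC ad lib mice 1 lower in the core and 6 higher outside it. Core transcripts are longer, with a median of 1669 bases against 933.5 for the others. Among genes of 1000 bases or more the pattern was the same in HFS TRF mice, with 4 of 12 core genes lower and 0 higher (median −0.07) and 20 of 31 others higher and 0 lower (median 0.27). Length here is that of the canonical transcript and was not checked against the reads. The split by length therefore cannot separate role from length. The difference between these 2 lists was not tested.

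Uqcrc2, a core protein of complex III, was lower at night in each diet. It ran from 251 to 283 CPM (median 271) at HC zt3 and from 181 to 242 CPM (median 232) at HC zt15 in NC ad lib mice, from 236 to 264 (median 256.1) and from 185 to 228 (median 212) in HFS ad lib mice, and from 229 to 270 (median 262) at HC zt3 in HFS TRF mice, where the 5 night mice had 214, 190.0, 199, 205 and 192 CPM. Within each diet the Uqcrc2 values of the 2 times did not overlap. The fold changes of Uqcrc2 were −0.25 ± 0.07 (edgeR adjusted p = 0.00643), −0.29 ± 0.07 (0.00127) and −0.37 ± 0.07 (7.96e-05) on the log2 scale (SE).

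Ndufs1, the largest iron-sulfur subunit of complex I, was lower at night in both HFS diets. In HFS TRF mice Ndufs1 ran from 165 to 208 CPM (median 184) at HC zt3, against 154, 144, 140, 135 and 133 CPM in the 5 mice at HC zt15, which did not overlap. The change was −0.39 ± 0.09 (edgeR adjusted p = 0.000708), and that in HFS ad lib mice was −0.24 ± 0.08 (0.0454). In NC ad lib mice Ndufs1 ran from 171 to 197 CPM at HC zt3 and from 132 to 203 CPM at HC zt15, and the change of −0.09 ± 0.08 did not pass (adjusted p = 0.527). Sdha, at 451 to 498 CPM and then 385 to 423 CPM in HFS TRF mice (−0.23 ± 0.06, adjusted p = 0.00424), and Uqcrc1, the other core protein of complex III (−0.27 ± 0.09, adjusted p = 0.0228), were lower in HFS TRF mice by edgeR, and their changes in NC ad lib mice were −0.06 each (adjusted p = 0.576 and 0.730).

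The largest called rise under TRF was that of Atp5mc1, a c subunit of the ATP synthase ring whose sequence is largely shared with copies (0.49), followed by the accessory subunits Ndufs5 (0.44) and Uqcrh (0.41). Uqcrh ran from 222 to 260 CPM (median 239) at HC zt3 in HFS TRF mice, against 292, 283, 303, 384 and 349 CPM in the 5 mice at HC zt15. Every night mouse was above every day mouse. The rise of Uqcrh was 0.41 ± 0.08 (edgeR adjusted p = 4.89e-05) there, 0.32 ± 0.07 (0.00100) in HFS ad lib mice and 0.17 ± 0.07 (0.115) in NC ad lib mice. Ndufs5, an accessory subunit of complex I, ran from 98.6 to 108 CPM (median 103) at HC zt3 and was at 121.9, 126, 132, 167 and 150.2 CPM at HC zt15 in HFS TRF mice. The groups did not overlap, with a rise of 0.44 ± 0.09 (edgeR adjusted p = 0.000158), set beside 0.46 ± 0.09 in HFS ad lib mice (4.37e-05), against 0.17 ± 0.09 (0.186) in NC ad lib mice.

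Atp5me, the e subunit that helps ATP synthase form dimers, ran from 100.2 to 139 CPM (median 124) at HC zt3 and from 154 to 172 CPM (median 162) at HC zt15 in HFS ad lib mice, again without overlap. It rose by 0.40 ± 0.08 there (edgeR adjusted p = 0.000146), by 0.36 ± 0.08 in HFS TRF mice (0.000975) and had 0.20 ± 0.08 in NC ad lib mice (0.0809). Cox6a1 rose in all 3 diets, by 0.24 ± 0.08 (edgeR adjusted p = 0.0262) in NC ad lib mice, 0.37 ± 0.08 (0.000289) in HFS ad lib and 0.38 ± 0.08 (0.000272) under TRF. Its 6 NC ad lib mice ran from 372 to 391 CPM at HC zt3 and from 389 to 509 CPM (median 473) at HC zt15. The lowest night mouse lay within the day range and the other 5 lay above it.

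In NC ad lib mice the 6 risers were Cox6a1, Cox6c, Cox7a2l, Ndufb11, Ndufc2 and Ndufv3. Ndufb11 and Ndufc2, accessory subunits of the membrane arm of complex I, rose by 0.27 ± 0.08 and 0.24 ± 0.07, and Cox7a2l by 0.20 ± 0.06 (edgeR adjusted p = 0.0164, 0.0202 and 0.0154). All 6 also rose under TRF and all but Cox6c in HFS ad lib mice. No mouse is shared between diets, but each night comparison spans the same 2 experiments, so the overlap does not separate night from experiment. Of the 25 HFS ad lib risers, 23 (92.0%) rose in HFS TRF mice too, and these are 51.1% of the 45 HFS TRF risers; the 2 others were Atp5pd and Cox6a2. Whether the night change differed between diets was tested directly: for HFS ad lib against NC ad lib and for HFS TRF against HFS ad lib, 0 of 87 nuclear members and 0% of all genes were called by edgeR, 0 members by DESeq2, and 4 higher and 0 lower, and 1 higher and 2 lower, at an unadjusted p below 0.05. The counts differed between diets, but no single gene was shown to change by a different amount.

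The 45 HFS TRF risers rose by 0.20 to 0.49. In complex I they were Ndufa1, Ndufa2, Ndufa3, Ndufa4, Ndufa6, Ndufa7, Ndufa11, Ndufa12, Ndufa13, Ndufb3, Ndufb5, Ndufb7, Ndufb8, Ndufb9, Ndufb10, Ndufb11, Ndufc1, Ndufc2, Ndufs5, Ndufs6 and Ndufv3. None of the 7 core genes of this complex, which carry its flavin and iron-sulfur clusters, was among them. In complex II the 2 membrane anchors Sdhc and Sdhd rose while the flavoprotein Sdha fell, and Sdhb, the iron-sulfur protein, had 0.08. In complex III the small subunits Uqcrb, Uqcrh, Uqcrq and Uqcr11 rose, and Uqcr10 and the Rieske protein Uqcrfs1 had 0.21 and 0.04. In complex IV Cox4i1, Cox5b, Cox5b-ps, Cox6a1, Cox6b1, Cox6c, Cox7a2, Cox7a2l, Cox7b and Cox8a rose. In complex V the risers Atp5me, Atp5mf, Atp5mg, Atp5mj and Atp5mc1 lie in the membrane part, Atp5pf and Atp5po in the stalk that holds the head, and Atp5if1 is the inhibitor. The 38 nuclear genes not called there are 16 in complex I, 1 in complex II, 2 in complex III, 8 in complex IV and 11 in complex V, the second Atp5po row among them.

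Differences between isoforms were not tested, and each gene is given by its own values. Cox6a2 ran from 6.27 to 9.31 CPM (median 7.94) at HC zt3 and from 11.1 to 17.7 CPM (median 13.9) at HC zt15 in HFS ad lib mice, without overlap, a rise of 0.80 ± 0.16 (edgeR adjusted p = 0.000190). In the NC ad lib and the HFS TRF mice the changes of Cox6a2 were 0.37 ± 0.16 and 0.39 ± 0.17 (adjusted p = 0.123 and 0.103). Cox4i1 rose by 0.32 ± 0.07 in HFS ad lib and 0.29 ± 0.08 under TRF (edgeR adjusted p = 0.00144 and 0.00484), while Cox4i2, a hypoxia-linked form, had 0.50 ± 0.49 and 1.04 ± 0.50 (0.593 and 0.162). Atp5mc1 rose by 0.49 ± 0.11 in HFS TRF mice (edgeR adjusted p = 0.000843), though most of its sequence is shared with copies. Atp5if1, the inhibitor that stops ATP synthase from running backwards, rose by 0.26 ± 0.07 in each HFS diet (edgeR adjusted p = 0.00879 and 0.00923). The catalytic Atp5f1b and Atp5f1a did not pass in any diet, with −0.06 ± 0.06 and −0.15 ± 0.07 under TRF (adjusted p = 0.588 and 0.181).

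Size of transcript moved with these changes. Over 79 nuclear members with more than 1000 counts a mouse, the log2 fold change at night fell with log2 transcript length, with Pearson r of −0.39, −0.37 and −0.42 (NC ad lib first, HFS TRF last), across genes of the same libraries. Over 12962 protein-coding genes of at least 1 CPM r was −0.00155, −0.11 and −0.13. Of the HFS TRF changes, 25 of 38 short members (under 1000 bases) rose and 0 fell, with a median of 0.27, and of 461 short protein-coding genes 150 rose and 8 fell, with a median of 0.21. In the same mice 20 of 41 longer members rose and 4 fell (median 0.20), against a median of 0.02 over 12501 longer protein-coding genes. When the trend with length over all genes was removed from the counts, an analysis chosen after the data were seen, 21 nuclear members rose and 4 fell in HFS TRF mice with a median of 0.06, 17 rose and 3 fell in HFS ad lib mice (0.08), and 6 rose and 2 fell in NC ad lib mice (0.05). The fall of Uqcrc2 in HFS TRF mice was −0.38 and that of Ndufs1 −0.37 after this step, the rises of Uqcrh and Ndufs5 were 0.33 and 0.18, and that of Atp5me was 0.03 (edgeR adjusted p = 1.29e-05, 0.000639, 5.00e-05, 0.0150 and 0.797). Cox6a1 was no longer called after this step in NC ad lib mice (0.15, edgeR adjusted p = 0.0621) or under TRF (0.13, 0.132) and was called in HFS ad lib mice (0.21, 0.00751). Cox4i1 was no longer called under TRF (0.10, 0.223), and Atp5if1 in neither HFS diet (0.11 and 0.03 ad lib and under TRF, 0.0710 and 0.711).

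**Figure D3:**
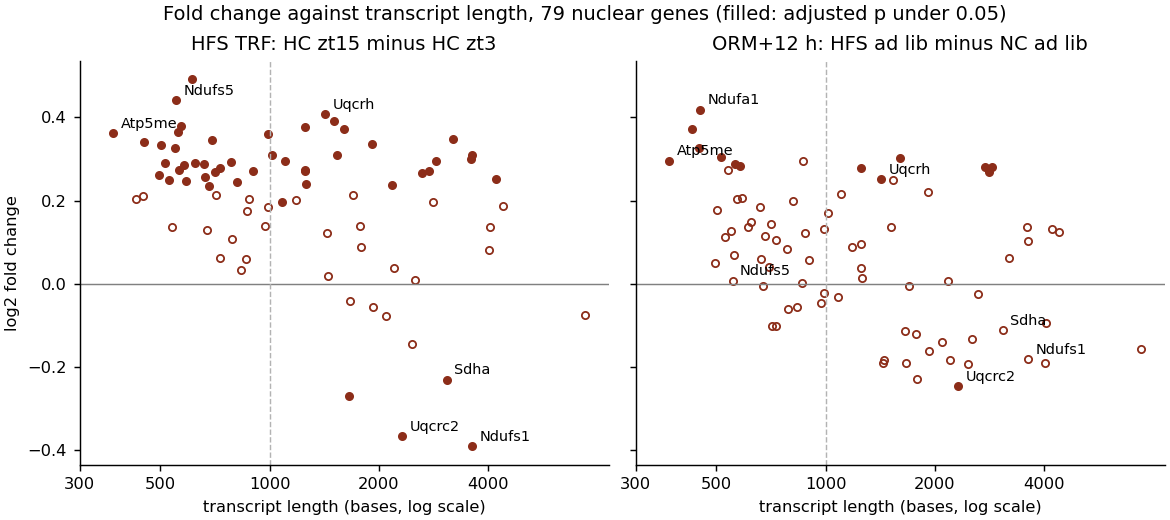
Log2 fold change against transcript length (log scale) for 79 nuclear subunit genes, at HC zt15 against HC zt3 in HFS TRF mice and at ORM+12 h in HFS ad lib against NC ad lib mice; filled points passed the adjusted p of 0.05 and the dashed line marks 1000 bases. Fold changes fall with length in both, with r of −0.42 and −0.44.

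Other gene groups moved with the night change. Of 102 genes matched by the symbols of cytosolic ribosomal proteins (11 of them S6 kinases or Rps19bp1), 48 rose and 6 fell at night in NC ad lib mice, 68 and 3 in HFS ad lib and 67 and 5 under TRF. Of the 78 mitochondrial ribosomal proteins, 1 rose and 2 fell in NC ad lib, 4 rose in HFS ad lib and 13 rose under TRF, led by Mrps36 in both HFS diets (0.36 and 0.40). Astrocyte markers rose as well, 10 of 10 in NC ad lib mice, 3 in HFS ad lib and 8 under TRF, with the summed level at 972 to 2382 CPM at HC zt3 and 2800 to 4122 CPM at HC zt15 in HFS TRF mice. All 5 blood genes, the hemoglobins and Alas2, rose in NC ad lib mice and under TRF and 0 in HFS ad lib mice, at 119 to 177 and then 203 to 690 CPM in NC ad lib mice. Of the 10 neuron markers 1 rose and 1 fell in NC ad lib, 1 rose in HFS ad lib and 0 changed under TRF. Of 5 markers of oligodendrocyte precursors 1 rose in each diet, Gpr17, by 0.66, 0.75 and 0.73. Of 9 microglia markers 5 rose in HFS ad lib mice, led by Tmem119 (1.13), and 0 in the other diets, with the summed level at HC zt15 in HFS ad lib mice at a median of 97.7 CPM and 1 mouse at 659. Of 7 endothelial markers 2 rose in HFS ad lib mice, led by Ly6c1 (2.35), and 1 under TRF, Cdh5 (2.52). Of 9 markers of myelinating oligodendrocytes 1 rose and 1 fell under TRF, the latter Opalin (−0.96), and 0 were called in the other diets. None of the 10 choroid plexus markers was called, with medians of 1.83, −0.48 and 0.86 in the 3 diets and a wide spread between mice, the summed level running from 317 to 4137 CPM at HC zt3 and from 691 to 20732 CPM at HC zt15 in NC ad lib mice. Under TRF it ran from 175 to 9978 and from 528 to 24834 CPM, and in HFS ad lib mice from 179 to 8815 and from 247 to 11970 CPM. At ORM+1 h in NC ad lib mice all 10 astrocyte markers also rose. The part of these cell types in the night change of the subunits was not tested.

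The other genes of the pathway were counted by list, and their counts stand beside a background of 5.18, 3.88 and 5.95% of all genes higher and 6.54, 6.54 and 8.26% lower in NC ad lib mice, in HFS ad lib and under TRF. Assembly factors of complexes I to V, which build but do not join the complexes, gave at most 1 call per list and diet: Ndufaf5 (−0.20) in NC ad lib, Ndufaf2 (0.28) and Uqcc2 (0.23) in HFS ad lib, and Acad9 (−0.30), Uqcc3 (0.29) and Pet100 (0.32) in HFS TRF mice. Of 16 genes of the tricarboxylic acid cycle, which feeds the chain, 2 rose in NC ad lib mice, 0 in HFS ad lib and 1 under TRF, led by Suclg2 (1.25 in the first and 1.02 in the last). Of 10 electron carriers and exchangers 1 rose in each diet, the electron transfer flavoprotein subunit Etfa in NC ad lib mice (0.55, edgeR adjusted p = 0.0269) and Cycs, which encodes cytochrome c, in HFS ad lib (0.23) and under TRF (0.25). Of 5 uncoupling proteins 1 fell in each diet, Slc25a27, by 0.31, 0.26 and 0.33 on the log2 scale. Of 19 genes for mitochondrial DNA expression, 0 rose and 3 fell in HFS ad lib mice, led by the poly(A) polymerase Mtpap (−0.31), and 1 rose and 1 fell in HFS TRF mice, where Lrpprc, which stabilises mitochondrial mRNA, fell by 0.46. Among 11 regulators of mitochondrial biogenesis, Yy1 rose in NC ad lib mice (0.20), Esrra led in HFS ad lib mice (0.30) and Gabpb1 fell in HFS TRF mice (−0.38).

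At 12 h after training no subunit gene passed the test against HC zt15 from HC zt15 within a diet. By edgeR 0 of 87 nuclear and 0 of 13 mitochondrial genes were called in any diet, where 0.209% of all genes were in NC ad lib (0.143% higher, 0.0664% lower), 0.179% in HFS ad lib (0.0697% and 0.109%) and 2.46% under TRF (1.57% and 0.889%). At an unadjusted p below 0.05, 0 were higher and 27 lower in NC ad lib, 6 higher and 11 lower in HFS ad lib, and 1 higher and 24 lower in HFS TRF mice, with medians of −0.10, 0.02 and −0.12. DESeq2 called 0, 0 and 6 nuclear genes. Leaving out NC ad lib ORM+12 h replicate 1 gave 4 nuclear and 2 mitochondrial calls, and leaving out HFS TRF ORM+12 h replicate 4 gave 8 nuclear calls.

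Between the ad lib diets, some nuclear subunits were called at ORM+12 h in the model of 12 groups. Their count ranged from 1 to 27 when single mice were left out. No call remained when only the groups compared were fitted. In HFS ad lib against NC ad lib mice, edgeR called 2.27% of all genes (0.763% higher and 1.51% lower) and 14 of 87 nuclear members, 13 higher and 1 lower, with a median of 0.10 over all 87. Of the risers, 5 are in complex I, 3 in complex III, 1 in complex IV and 4 in complex V, and of 19 core genes 0 were higher and 1 was lower (median −0.12). Against HC zt15, the change in HFS ad lib minus that in NC ad lib mice was called for 0.106% of all genes and 0 nuclear members by edgeR, with 24 higher and 2 lower at an unadjusted p below 0.05; DESeq2 called 9.

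Ndufa1, a small accessory subunit of complex I needed for its assembly, ran from 67.2 to 91.0 CPM (median 76.6) in NC ad lib and from 86.5 to 125 CPM (median 106) in HFS ad lib mice at ORM+12 h. The groups overlapped between the highest of the first and the lowest of the second, and Ndufa1 was higher by 0.42 ± 0.09 (SE, edgeR adjusted p = 0.0135). At HC zt15 the same comparison of Ndufa1 gave −0.05 ± 0.09 (0.921). Uqcr10, a small subunit of complex III, ran from 138 to 208 and from 178 to 242 CPM (medians 158 and 199; 0.33 ± 0.08, edgeR adjusted p = 0.0163), and Cox8a from 401 to 509 and from 455 to 645 CPM (medians 431 and 535; 0.29 ± 0.07, adjusted p = 0.0232). Uqcrc2 ran from 190.1 to 246 CPM in NC ad lib and from 168 to 216 CPM in HFS ad lib mice (medians 215 and 176), lower by 0.25 ± 0.07 in HFS ad lib mice (−0.25, edgeR adjusted p = 0.0347). In each of these genes the medians stood apart while the ranges overlapped. The other risers were Ndufa2, Ndufa3, Ndufc1, Ndufv3, Uqcr11, Uqcrh, Atp5f1e, Atp5me, Atp5mj and Atp5mk, by 0.25 to 0.37.

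**Figure D4:**
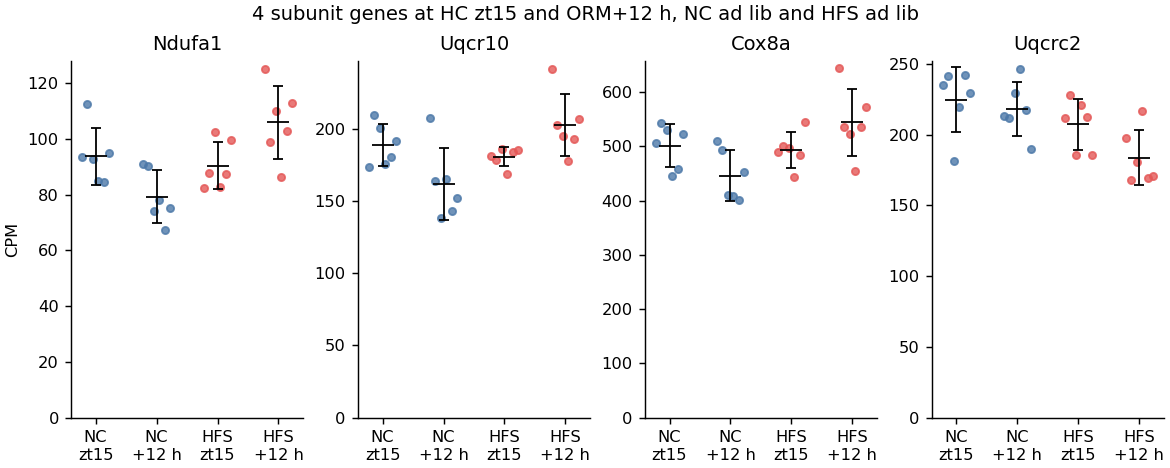
CPM of Ndufa1, Uqcr10, Cox8a and Uqcrc2 in each mouse of both ad lib diets at HC zt15 and ORM+12 h, with the mean and SD of each group of 6. At ORM+12 h the medians of the first 3 genes are higher in HFS ad lib mice (106 against 76.6, 199 against 158 and 535 against 431 CPM) and that of Uqcrc2 is lower (176 against 215 CPM).

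The ORM+12 h comparison moved with single mice and with choroid plexus. The count of 14 was 22, 1, 2, 2 and 5 without NC ad lib ORM+12 h replicates 1, 3, 4, 5 and 6, and 2, 3, 5, 27, 8 and 4 without HFS ad lib ORM+12 h replicates 1 to 6, and it was 0 when only the 2 groups compared were fitted. Choroid plexus markers had a summed 363 to 5366 CPM (median 519) in NC ad lib and 252 to 21914 CPM (median 7189) in HFS ad lib mice at ORM+12 h, with 8 of 10 higher at an unadjusted p below 0.05 and 0 after adjustment. With their level as a covariate, chosen after the data were seen, 4 nuclear members were higher and 1 lower. In the same comparison the tricarboxylic acid cycle went the other way, with 0 of 16 genes higher and 6 lower, led by Pdhb of pyruvate dehydrogenase (−0.26), and 15 lower at an unadjusted p below 0.05. The fold changes of the subunits also fell with length here (r = −0.44, 79 genes). The part of choroid plexus and of length in these differences was not tested.

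Within groups, 3 isoforms of cytochrome c oxidase followed choroid plexus closely. Cox8b, Cox6b2 and Cox7a1 are forms best known from muscle, heart or testis. Cox8b ran from 0.816 to 29.0 CPM across the 6 NC ad lib ORM+1 h mice, Cox6b2 from 2.09 to 21.0 CPM and Cox7a1 from 1.54 to 6.76 CPM, and the choroid plexus sum of these mice ran from 151 to 16394 CPM. In a model over all 71 mice with the group as a term, Cox8b changed by 0.53 ± 0.03 on the log2 scale per doubling of the choroid plexus markers (SE, edgeR adjusted p = 3.41e-27), Cox6b2 by 0.45 ± 0.02 (8.63e-30) and Cox7a1 by 0.26 ± 0.02 (2.28e-23). Of all genes 9.86% rose and 4.99% fell with the markers, and of the 87 nuclear members 20 rose (23.0%) and 0 fell, while 0 of 13 mitochondrial genes were called. The other 17 had far smaller slopes, the highest being those of Atp5mc1 (0.05), Sdhc (0.05) and Ndufa1 (0.05). Cox6a2 and Cox4i2 had slopes of −0.01 each (adjusted p = 0.689 and 0.943). The covariate was chosen after the data were seen. None of Cox8b, Cox6b2 and Cox7a1 was called in any comparison between groups; at night in NC ad lib mice Cox6b2 had 1.60 ± 0.58 (adjusted p = 0.0587), which is the point beyond the axis in the plot by complex.

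At HC zt15 against HC zt3, edgeR called 4 of 13 lower in each ad lib diet (background 6.54% lower in each), and 3 lower and 4 higher in HFS TRF mice (8.26% and 5.95%). The genes that fell were mt-Co2, mt-Co3 and mt-Atp6 in every diet and mt-Nd4l in the first 2. All 4 are genes of which no word occurs once in the genome, as given above. Their reads may therefore be shared with nuclear copies, and the part of shared sequence in these falls was not tested. mt-Co2, the subunit that takes electrons from cytochrome c, ran from 0.161 to 0.926 CPM (median 0.433) at HC zt3 and from 0 to 0.0783 CPM (median 0.0368) at HC zt15 in NC ad lib mice, without overlap. Its fold changes were −3.80 ± 0.59 in NC ad lib mice, −4.58 ± 0.55 in HFS ad lib and −2.80 ± 0.52 under TRF (SE, edgeR adjusted p = 9.69e-07, 1.10e-09 and 5.11e-05). Those of mt-Co3 were −2.57, −5.10 and −2.84 and those of mt-Atp6, the proton channel of ATP synthase, −2.57, −3.42 and −3.25. mt-Co3 had 24.2 and mt-Co2 30.2 counts a mouse on average. mt-Atp8 had −2.18 ± 1.01, −2.84 ± 1.02 and −2.71 ± 1.08 in the 3 diets in the same order (edgeR adjusted p = 0.155, 0.0627 and 0.0841). mt-Nd3, with little sequence of its own, had 2.05 ± 1.08, −1.20 ± 0.99 and −0.50 ± 1.04 (0.221, 0.492 and 0.838), and so went up in NC ad lib mice, without passing the test in any diet.

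The 7 nearly empty genes together took 0.342 to 0.958% of the mitochondrial counts in the 36 mice of the first experiment and 0.0216 to 0.332% in the 35 of the second. The highest mouse of the second lay below the lowest of the first, with trained and home cage mice alike on each side, so the 2 experiments did not overlap in this share. In counts it was 39 to 612 and then 2 to 86 per mouse. None of the 6 genes with the higher levels was called lower, and in HFS ad lib mice none was called at all, with mt-Nd4 at 0.21, mt-Nd2 at 0.20, mt-Nd5 at 0.02, mt-Nd1 at −0.03, mt-Cytb at −0.04 and mt-Co1 at −0.47. mt-Nd6, low in counts and unique in sequence, had 0.80 ± 0.86, 1.44 ± 0.86 and 0.56 ± 0.89 in the 3 diets (edgeR adjusted p = 0.620, 0.302 and 0.761). In HFS TRF mice mt-Nd4, mt-Nd2, mt-Nd5 and mt-Cytb rose by 1.14 ± 0.35, 1.11 ± 0.38, 1.01 ± 0.35 and 0.97 ± 0.34 (SE, edgeR adjusted p = 0.0164, 0.0355, 0.0369 and 0.0454). mt-Nd1 ran from 67.5 to 155 CPM (median 97.3) at HC zt3 and was at 158, 240, 82.8, 187 and 237 CPM at HC zt15 in these mice, with 1 night mouse inside the day range and 0.81 ± 0.38 (adjusted p = 0.143). Left out one at a time, HFS TRF HC zt3 replicates 1, 3, 5 and 6 and HC zt15 replicate 2 each left 4 of the 7 calls and HC zt15 replicate 5 left 3. Without NC ad lib HC zt15 replicate 6 the NC ad lib count was 7.

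**Figure D5:**
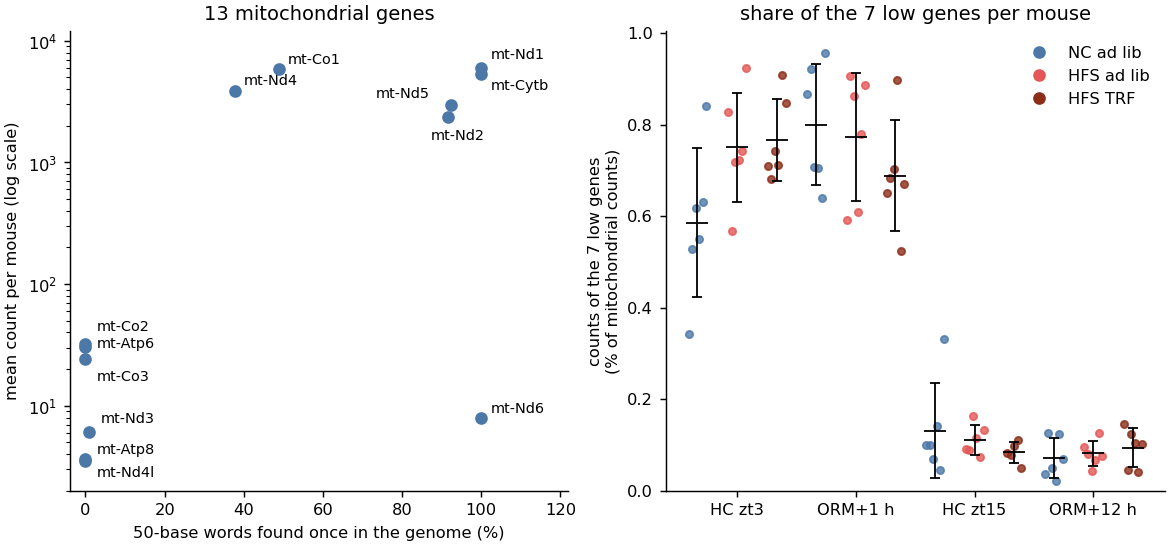
Left, mean count per mouse (log scale) of the 13 mitochondrial genes against the share of their 50-base words found once in the genome. Right, share of mitochondrial counts in the 7 low genes per mouse by diet and condition, with the mean and SD of each group; all HC zt3 and ORM+1 h mice lie at 0.342% or above and all HC zt15 and ORM+12 h mice at 0.332% or below.

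In the first experiment the mitochondrial genes had larger fold changes between diets than the nuclear ones, without any gene passing the adjusted test in the model of 12 groups. At HC zt3, 0 of all 30141 genes (0%) were called in HFS ad lib against NC ad lib mice by edgeR, and 0 members by DESeq2. At an unadjusted p below 0.05, 10 of 13 mitochondrial genes were higher and 0 lower (median 0.97), and 0 of 87 nuclear genes were higher and 15 lower (median −0.12). The 13 genes share a genome and were read in the same libraries, and some are nearly empty. Their counts, here and below, are therefore not 13 separate observations. mt-Nd1 ran from 51.3 to 104 CPM (median 64.9) in NC ad lib, from 87.2 to 173 CPM (median 119) in HFS ad lib and from 67.5 to 155 CPM (median 97.3) in HFS TRF mice at HC zt3. The first 2 groups overlapped in part, at 0.82 ± 0.36 (SE, edgeR adjusted p = 0.588), and mt-Co1, the catalytic subunit of complex IV, had 0.95 ± 0.29 (0.588). The 2 mitochondrial rRNAs, summed, ran from 29.5 to 67.5 CPM (median 39.1) in NC ad lib and from 52.0 to 149 CPM (median 92.9) in HFS ad lib mice. At ORM+1 h, 0% of genes were called again, and 9 of 13 mitochondrial genes were higher in HFS ad lib than in NC ad lib mice at an unadjusted p below 0.05 (median 1.16), with mt-Nd5 at 1.26 ± 0.34 (edgeR adjusted p = 0.469). With a replicate block within condition, chosen after the data were seen, edgeR called 6 of the 13 higher there and 0 at HC zt3. In HFS TRF against HFS ad lib mice, 9 of 13 were lower at that threshold (median −0.95) and 0 passed (0% of all genes), with mt-Nd1 at −0.95 ± 0.36. These last 2 comparisons share the HFS ad lib ORM+1 h mice, so their opposite signs are not independent of each other.

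In the remaining diet comparisons no subunit gene was called by edgeR or DESeq2. For HFS ad lib against NC ad lib at HC zt15, 0.0630% of all genes were called and 0 of 87 nuclear members were higher and 4 lower at an unadjusted p below 0.05. For HFS TRF against HFS ad lib, 0% of all genes were called at HC zt3 and HC zt15 and 0.00664% at ORM+12 h. At an unadjusted p below 0.05, 17 nuclear genes were higher and 0 lower at HC zt3, where all 87 had a fold change above 0 (median 0.12), 44 were higher and 1 lower at HC zt15 (median 0.17), and 5 were higher and 0 lower at ORM+12 h (median 0.03). At ORM+1 h it was 1 higher and 9 lower (median −0.08). The share of all genes at this unadjusted threshold is not given, so these counts are not shown to exceed a background.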

How the data were processed

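Reads of pS6-TRAP libraries (stranded mRNA kit, 50-base pairs) were trimmed by the authors with Trim Galore 0.6.7 and cutadapt 3.4, aligned with HISAT2 2.2.0 and counted per gene with featureCounts (Subread 2.0.3), uniquely mapped reads only. The deposited table holds these raw counts on GRCm39; the annotation release and strand setting are not given in the sources used here, so overlapping genes may share reads. Groups came from the labels. Genes with at least 10 counts in total (30141) were tested with edgeR 4.0.16 (TMM, quasi-likelihood, Benjamini-Hochberg, R 4.3.3) in 1 model of 12 groups with 17 comparisons and 6 differences of changes, and every nuclear and mitochondrial member passed that minimum. The test was checked on simulated data. DESeq2 1.42.0 was an alternative. P-values measure the spread between mice. Members and lists were chosen with earlier results of these data known. Genes named were, per comparison, the 3 nuclear calls with the smallest p in each direction and every mitochondrial call, the highest and lowest member of each complex per length, core genes, isoforms and the inhibitor; other pathway genes were named only where they had the smallest p of a list with a call; the full list of HFS TRF risers was added after its values were seen. Replicate numbers were not used to pair mice across groups in the main model, and the labels do not say what they mark. Deviations of same-numbered mice had a median r from −0.25 to 0.42 across the comparisons. At ORM+1 h replicates 3 and 4 had the highest mitochondrial sums in each diet, and replicate 1 did at ORM+12 h.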

Additional observations from a re-analysis of the deposited data

Results flagged for a closer look

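In 15 of 192 groups of values tested, 1 mouse lay far from the others of its group by Dixon's criterion, where chance gives about 1 in 20. For summed levels these were NC ad lib ORM+12 h replicate 1, with 967 CPM over the mitochondrial genes against 169 to 260 CPM in the others, HFS ad lib ORM+12 h replicate 1, with 20441 CPM over the nuclear genes against 17685 to 18090 CPM, and HFS TRF ORM+12 h replicate 4, with 21406 CPM against 17390 to 18506 CPM. The share of mitochondrial counts in the 7 low genes was 0.332% in NC ad lib HC zt15 replicate 6 and 0.0464 to 0.140% in the others.

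Among single genes, Ndufs5 stood at 159 CPM in NC ad lib HC zt15 replicate 2 (others 102 to 117), at 149 CPM in HFS ad lib ORM+12 h replicate 1 (108 to 114) and at 152 CPM in HFS TRF ORM+12 h replicate 4 (112 to 121). Uqcrc2 was low at 236 CPM in HFS ad lib HC zt3 replicate 3 (255 to 264), at 229 CPM in HFS TRF HC zt3 replicate 4 (260 to 270.1) and at 181 CPM in NC ad lib HC zt15 replicate 3 (219 to 242). Ndufs1 was at 170.3 CPM in HFS TRF ORM+12 h replicate 1 (111 to 123) and Ndufa1 at 113 CPM in NC ad lib HC zt15 replicate 2 (84.6 to 94.9). Cox8b was at 15.9 CPM in HFS TRF ORM+1 h replicate 3 (1.29 to 5.08) and at 19.3 CPM in HFS TRF ORM+12 h replicate 6 (1.98 to 6.66). mt-Nd1 was at 244 CPM in NC ad lib ORM+12 h replicate 1 (40.5 to 55.2).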

How the results depend on the processing

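Of 46 counts of calls compared, the alternatives moved at most 4 each by over 1.5 times; another normalisation, a minimum of 1 count and the replicate block moved 0. With DESeq2 the nuclear count was 5 instead of 1 at ORM+1 h in HFS ad lib mice, 6 instead of 0 at ORM+12 h in HFS TRF mice, 25 instead of 14 for HFS ad lib against NC ad lib at ORM+12 h, and 9 instead of 0 for the difference of changes there. With only the groups compared in the fit these were 0 at ORM+1 h in HFS ad lib and 0 for the diets at ORM+12 h, with 1 instead of 0 at ORM+1 h in NC ad lib mice and 7 instead of 4 mitochondrial calls at night in NC ad lib mice. With edgeR's own filter 1 mitochondrial gene was called between these diets at ORM+12 h instead of 0. Among alternatives chosen after the data were seen, the choroid plexus covariate gave 2 at ORM+1 h in HFS ad lib mice and 5 for the diets at ORM+12 h, and removing the length trend gave 25 instead of 49 at night in HFS TRF mice and 1 at ORM+12 h in those mice, and turned Ndufa4 at night in HFS TRF mice from 0.25 to −0.023. With a replicate block within condition, also added later, the diets gave 22 nuclear calls and 1 mitochondrial call at ORM+12 h and 6 mitochondrial calls at ORM+1 h. The replicate number was also fitted as a block across all groups, though the labels do not say that it pairs mice. The night counts of nuclear genes were then 8 in NC ad lib mice, 27 in HFS ad lib and 48 under TRF. The ORM+12 h diet count was 15. The cause of these shifts was not tested.

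Leaving out 1 mouse at a time, nuclear counts ranged from 0 to 3 at ORM+1 h in HFS ad lib mice, at ORM+12 h from 0 to 4 in NC ad lib and from 0 to 8 in HFS TRF mice, at night from 3 to 11 in NC ad lib, 18 to 30 in HFS ad lib and 28 to 52 under TRF, from 1 to 27 for the diets at ORM+12 h and from 0 to 11 for the difference of changes. Mitochondrial counts ranged from 0 to 2 at ORM+12 h in NC ad lib mice, at night from 3 to 7 in NC ad lib, 4 to 5 in HFS ad lib and 3 to 7 under TRF, and from 0 to 6 for the diets at ORM+12 h. Genes of a few counts per mouse, such as mt-Nd4l, limit what the depth can show.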
